A study of Homo sapiens with 9 samples.

Results

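The clustered protocadherins are 53 genes on chromosome 5 that lie in 3 tandem clusters, 15 in the alpha, 16 in the beta and 22 in the gamma cluster. They were taken by symbol from 60683 gene IDs: PCDHA, PCDHB, PCDHGA or PCDHGB with a number, and the C-type genes PCDHAC1, PCDHAC2, PCDHGC3, PCDHGC4 and PCDHGC5. Another 7 symbols of the clusters, 6 pseudogenes and 1 antisense gene, were left out. The question was which of these isoforms each cell line expressed. RNA was sequenced from 3 groups of 3 libraries of HEK293T, a cell line derived from human embryonic kidney and made to express the large T antigen of SV40. Parental cells carried no integrated reporter. Clone 37 and clone 15 each grew from a single sorted cell after stable transfection with the piggyBac transposon system, which inserted 2 reporters. One, ATG-(CAG)60-Myc-NLuc, holds an expanded CAG repeat ahead of NanoLuc, and the other, ATG-(CAG)0-Myc-FLuc, has firefly luciferase without the repeat. Clone 37 was chosen for high and clone 15 for low levels of both, and all lines grew in the same medium. With 1 clone at each level, reporter level cannot be told apart from other differences between the clones. The labels do not say that the replicates of a line were separate cultures, so p-values measure the spread between these libraries, which may be technical.

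Clustered protocadherins are cell-surface adhesion proteins of the cadherin superfamily. Neurons switch on different small sets of them, and because each isoform binds its own kind on another cell, the set serves as a surface label by which the branches of a neuron avoid each other. Each alpha and gamma isoform has its own promoter and a large first exon that encodes the outer and membrane-spanning parts, spliced to constant exons that the whole cluster shares. Beta genes have a single exon and no constant part. CTCF and cohesin bring a promoter to distant enhancers by binding a conserved element with the core CGCT, and promoters that are not chosen are usually methylated.

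The promoter sequences are shown for the word CGCT, the core of the element that CTCF binds. A promoter of 300 bases, 250 before and 50 after the start of transcription, was found in RefSeq (GRCh38.p14) for 47 of the 53. The word CGCT was present on either strand in 46 of these 47, and in 70.0% of all 35116 promoters. A longer form was shared within each cluster. TGTCGCT was present in 10 of 13 alpha promoters and in 1.76% of all promoters. GGCGCTG was present in 12 of 14 beta promoters and 11.5% of all, and GCCGCTG in 12 of 20 gamma promoters and 11.1% of all. The longer words were chosen after these promoters had been read, and a match is a description only. It does not show that a promoter, that of PCDHGC4 included, holds the whole element or that CTCF binds there. Windows of 51 bases around the word are shown for 8 members that differed between the lines or were the most abundant, 5′ to 3′ on the plus strand, with CGCT in capitals.
PCDHA10, chr5:140855835-140855885: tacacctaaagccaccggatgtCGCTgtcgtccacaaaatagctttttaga
PCDHA11, chr5:140868877-140868927: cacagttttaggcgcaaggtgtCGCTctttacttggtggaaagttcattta
PCDHB8, chr5:141177771-141177821: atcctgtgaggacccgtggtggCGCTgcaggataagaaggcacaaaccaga
PCDHB13, chr5:141213859-141213909: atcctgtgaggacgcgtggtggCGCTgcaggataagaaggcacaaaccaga
PCDHGA7, chr5:141382643-141382693: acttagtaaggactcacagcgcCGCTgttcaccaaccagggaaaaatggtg
PCDHGA11, chr5:141420966-141421016: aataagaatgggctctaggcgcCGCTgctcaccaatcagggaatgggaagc
PCDHGC3, chr5:141475874-141475924: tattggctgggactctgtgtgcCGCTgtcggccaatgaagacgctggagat
PCDHGC4, chr5:141484946-141484996: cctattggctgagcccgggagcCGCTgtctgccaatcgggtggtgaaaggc

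The windows of PCDHB8 and PCDHB13 differed at 1 base (98.0% identity). Those of PCDHGB4 and PCDHGB5 in the gamma cluster also differed at 1 base. The median identity of a pair was 54.9% among 10 alpha windows, 60.8% among 12 beta windows and 53.9% among 12 gamma windows. PCDHAC2, the C-type alpha gene described below, held no TGTCGCT in its promoter, and neither did PCDHAC1 or PCDHA9. Likeness in the exons, where the reads lie, was measured apart. Of all 75-base words in the exon sequence that belongs to PCDHB8 alone, 34.5% also occurred in another gene, PCDHB13 above all, against 18.5% for PCDHB13 and a median of 5.12% over the 53 members. No such word was found for PCDHAC2, PCDHGA11, PCDHGC3, PCDHGC4 or PCDHGC5.

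Levels are CPM (transcript-strand gene counts scaled to the library total) and those totals ran from 10334090 to 38093340 per library. One count was worth 0.0263 to 0.0968 CPM, and a count of 0 allows up to 3 counts, 0.0788 to 0.290 CPM. Pairs in the constant exons fit several genes and enter no member's count, so the values of alpha and gamma genes come from the first exon and other sequence of their own. In RNA depleted only of ribosomal RNA, pre-mRNA from an upstream promoter runs through the first exons further down, and it cannot be told apart from an isoform's own transcript. Clone 15 differed from the other lines in its libraries. It was read at 100 bp rather than 75 bp and had the 3 deepest libraries. Of its read pairs, 33.7% to 34.6% met no annotated exon. That share was 19.2% in parental replicate 2 and 25.7% to 29.9% in the rest of the parental and clone 37 libraries. Multimapping pairs were 4.59% to 5.98% in clone 15 and 10.4% to 13.95% elsewhere. An effect of the longer reads cannot be told apart from one of the clone.

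Cell markers were read before the members. Of 8 genes of the HEK293 type, all had counts in every group. Their sum was 1279 to 1571 CPM in parental, 798 to 869 in clone 37 and 4050 to 4203 in clone 15. In parental cells and clone 15 most of it came from the neurofilament genes NEFM and NEFL. In clone 37 the largest part was VIM, with a mean of 543 CPM, against 137 for NEFM and 60.7 for NEFL. VIM itself was alike in the lines, at 545 CPM in parental cells and 547 in clone 15, so the sum does not describe each gene. The blood and endothelial lists summed to at most 0.650 CPM in any library. A list of 4 neuronal markers summed to 15.4 to 18.5 CPM in parental, 13.7 to 16.6 in clone 37 and 8.53 to 9.79 in clone 15, and 3 epithelial markers to 13.6 to 15.6, 3.68 to 4.53 and 4.88 to 5.83. Of 4 fibroblast markers (COL1A1, COL1A2, DCN and LUM), COL1A2 had no count in the 6 parental and clone 37 libraries, but 5.59, 12.2 and 56.8 CPM in clone 15 replicates 1, 2 and 3. COL1A1 was at 48.3, 61.4 and 108 CPM in those 3, against 32.9 to 35.5 in parental and 18.4 to 20.7 in clone 37. DCN and LUM were also highest in replicate 3 within clone 15, at 1.23 and 1.45 CPM. LUM was nevertheless lower in clone 15 than in parental cells, where it was at 1.73 to 2.41 CPM (log2 fold change -1.43, SE 0.38, adjusted p 0.0027, edgeR). The list as a whole summed to 54.5, 74.5 and 168 CPM in clone 15, 34.7 to 37.8 in parental and 18.9 to 20.9 in clone 37. A further list of 10 fibroblast genes, chosen after these values were seen, summed to 69.8 to 92.8 CPM in clone 15, 127 to 148 in parental and 94.9 to 100.5 in clone 37. LOX and FBN1 made up most of that sum, which hides members that followed COL1A2. Across clone 15 replicates 1, 2 and 3, COL3A1 was at 2.36, 3.05 and 9.49 CPM, against 12.4 to 14.5 in parental cells. COL6A3 was at 0.709, 1.71 and 7.29 CPM and PDGFRB, a growth factor receptor of fibroblasts and pericytes, at 0.446, 0.487 and 1.56, and neither exceeded 0.863 CPM in the other 6 libraries. LOX, at 21.9, 21.3 and 19.5 CPM, and PRRX1, at 3.94, 4.75 and 3.38, ran against this and were lowest in replicate 3. Clone 15 replicate 3 thus stood apart in collagen RNA and in some, not all, of the genes typical of fibroblasts. Whether the clone 15 libraries held RNA of another cell type was not tested, nor was its part in the levels of the members. The calls that rest on clone 15 are therefore also given without replicate 3. COL1A2 was present in replicates 1 and 2 as well, so this step lowers such RNA but does not remove it. It cannot settle the question.

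Clone 15 had more isoforms at 1 CPM or more than the other 2 lines, though not every member was higher there. PCDHGB5 had a mean of 0.592 CPM in clone 15, 0.793 in parental cells and 0.711 in clone 37. PCDHGA1 had 0.298, 0.403 and 0.411. At 1 CPM or more in all 3 libraries stood 3 isoforms in parental cells (PCDHGA11, PCDHGC3 and PCDHGC4), the same 3 in clone 37, and 7 in clone 15, which added PCDHA10, PCDHAC2, PCDHB13 and PCDHGC5. The numbers depend on the threshold, with 7, 5 and 18 isoforms at 0.5 CPM and 4 in clone 15 at 2 CPM. Without clone 15 replicate 3 the number at 1 CPM was 9, with PCDHB8 and PCDHGA7 as well. In bulk RNA, fewer expressing cells and less RNA per cell cannot be told apart, so these sets describe a line and not a cell. Just outside the threshold in parental cells were PCDHB2 (1.48, 0.647 and 0.919 CPM) and PCDHGB7 (0.740, 1.08 and 1.22 CPM), and in clone 15 PCDHGA6 (1.31, 0.975 and 1.02 CPM). PCDHGC5 was just outside in clone 37 (0.548, 1.06 and 0.729 CPM).

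**Figure D1:**
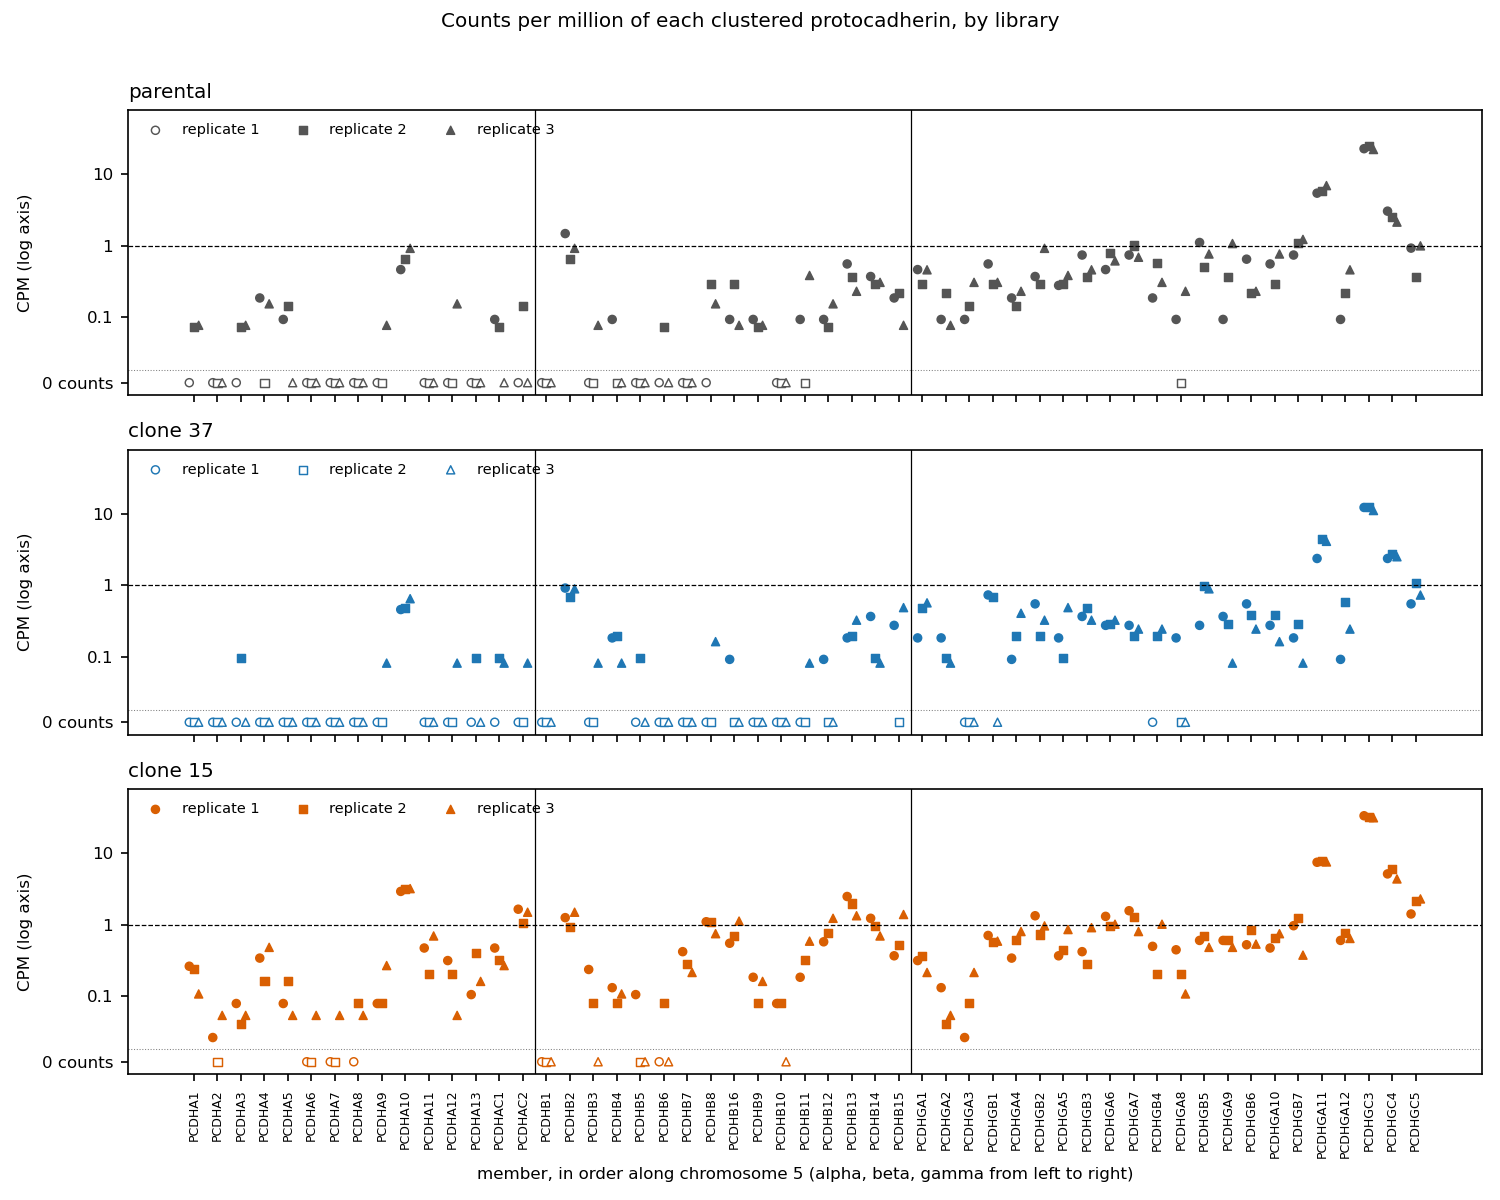
CPM of all 53 members (log axis) in the 3 libraries of each line, in the order of the genes on chromosome 5; the dashed line marks 1 CPM, vertical lines part the clusters, and open points on the lowest line are libraries with 0 counts. The alpha and beta genes lie mostly at or near 0 in parental and clone 37, and PCDHGC3 is the highest member in every library.

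Most alpha and beta genes were near the limit of detection. A count was seen for 35 to 38 members in parental libraries, 28 to 32 in clone 37 and 48 in each clone 15 library. With every library thinned to 10334090 counts the numbers were 34 to 35, 26 to 29 and 42 to 44. No count in any of the 3 libraries was recorded for 10 members in parental cells, 14 in clone 37 and 1 in clone 15. That one, PCDHB1, had no count in all 9.

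The summed level of each cluster was lowest in clone 37 and highest in clone 15. The alpha genes summed to 1.15 ± 0.311 CPM in parental cells, 0.734 ± 0.260 in clone 37 and 6.69 ± 0.467 in clone 15 (SD, n = 3 libraries in each group, here and below). The beta genes summed to 2.60 ± 0.398, 1.85 ± 0.513 and 8.68 ± 0.596 CPM. The gamma genes summed to 41.0 ± 1.04, 24.1 ± 2.30 and 58.4 ± 1.38 CPM. Groups did not overlap in any of these comparisons except for the alpha genes in clone 37 and parental cells. By two-sided exact permutation tests, p was 0.2 for that one and 0.1 for the other 8 comparisons, the smallest p that 3 against 3 allows, and 0.2 and 0.1125 after adjustment over the 9. None can therefore pass 0.05. Clone 15 was 5.84 times parental for alpha, 3.34 times for beta and 1.43 times for gamma. Without clone 15 replicate 3 the log2 ratios were 2.50, 1.70 and 0.53, against 2.55, 1.74 and 0.51 with it.

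**Figure D2:**
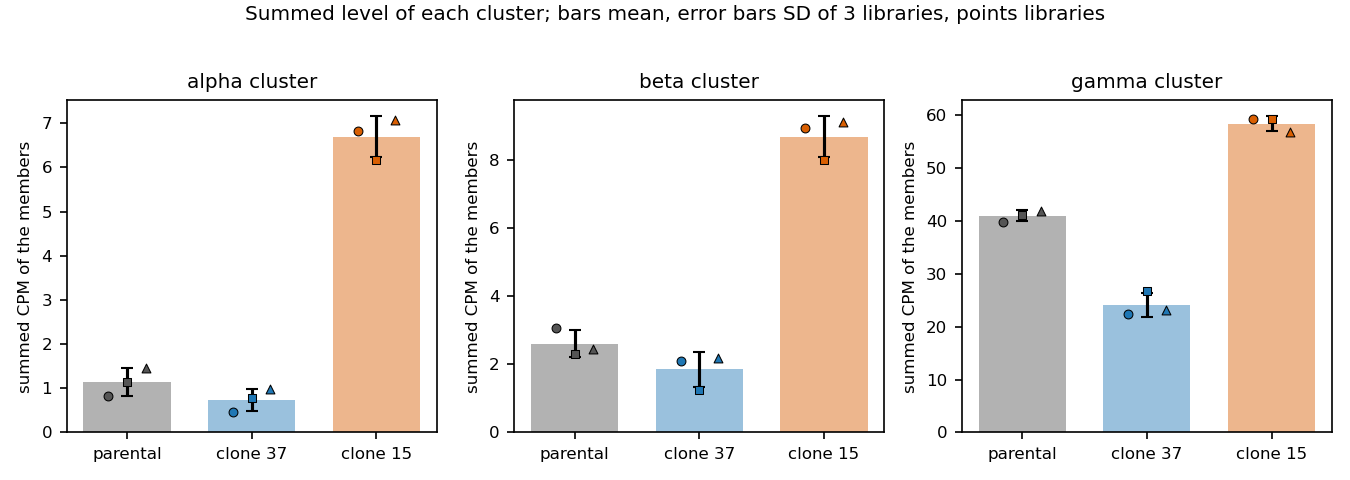
Summed CPM of the alpha, beta and gamma members on linear axes from 0; bars are means, error bars SD of 3 libraries, points libraries. Clone 15 has the tallest bar in each panel, at 6.69, 8.68 and 58.4 CPM.

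Gene by gene, edgeR's quasi-likelihood test was run on the whole table, with p adjusted by Benjamini and Hochberg over all genes that passed the filter on low counts, and an adjusted p under 0.05 was called. Each contrast shares its libraries with another, so calls in the 3 comparisons do not support each other. In clone 37 against parental cells, 6 of the 53 members passed the filter, 2 were called lower and 0 higher. Of all 16501 genes tested, 54.0% were called (26.7% higher and 27.3% lower), so a call is common in these comparisons. In clone 15 against parental cells, 16 passed, 8 were called higher and 0 lower, against 51.4% of 17703 genes (25.1% higher and 26.2% lower). Between the clones, 15 passed and 12 were lower in clone 37, 0 higher, against 57.7% of 17712 genes (28.7% higher and 29.0% lower). The median log2 fold change of the members that passed was -0.20, 0.86 and -1.52, and of all genes 0.02, 0.02 and -0.00. The remaining 47, 37 and 38 members were too low to be tested. At an unadjusted p under 0.05 the members higher and lower were 0 and 2, 10 and 0, and 0 and 12, and DESeq2 called the same 2, 8 and 12. A member that passed through its level in clone 15 alone was more likely to differ, and in that direction, so neither these counts nor the medians describe the 53. All 8 calls against parental cells held without clone 15 replicate 3. Between the clones 11 of the 12 held, PCDHGB2 no longer passed the filter, and PCDHGB7 was called in addition.

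**Figure D3:**
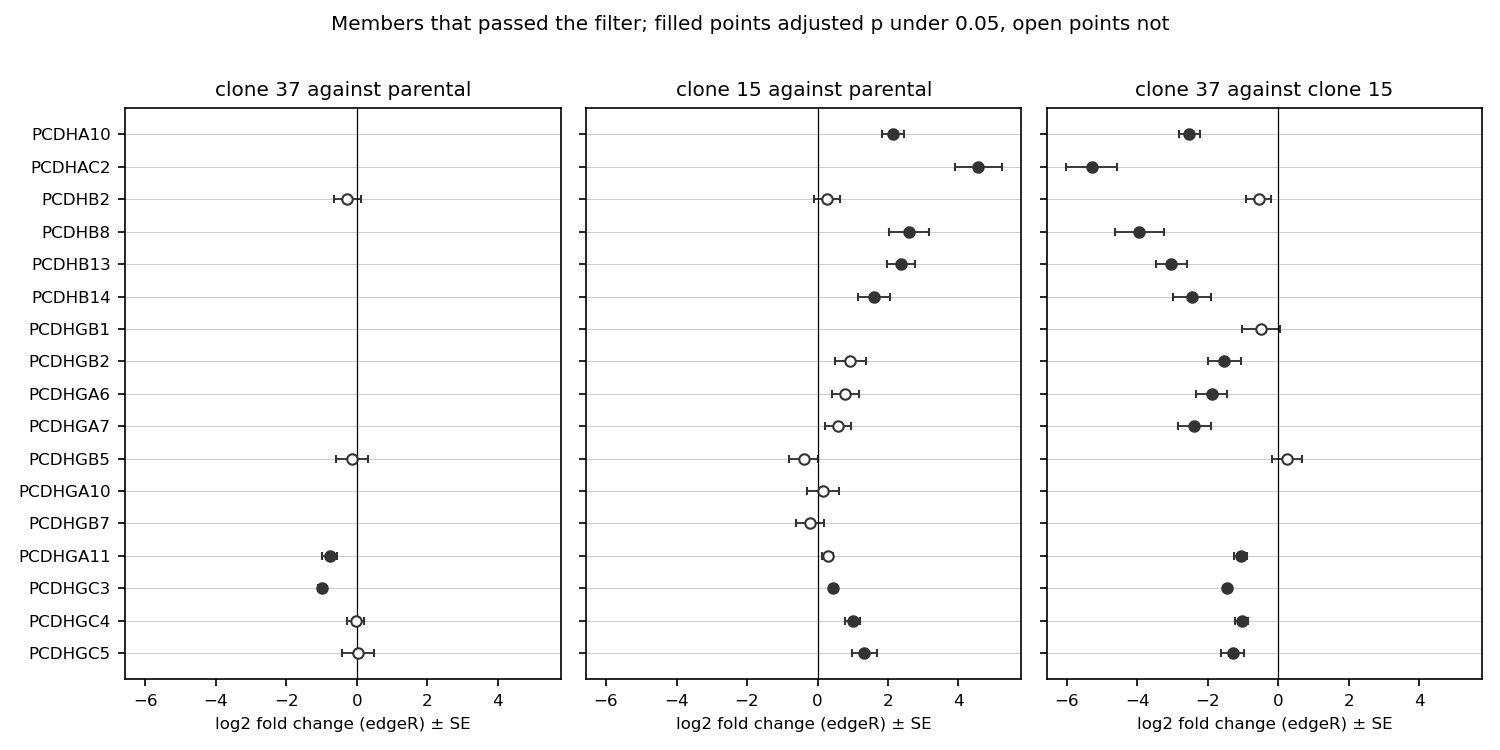
Fitted log2 fold change with its SE for the members that passed the filter in each of the 3 comparisons (edgeR); filled points have an adjusted p under 0.05. In the middle panel the 8 filled points lie to the right of 0, from 0.44 for PCDHGC3 to 4.56 for PCDHAC2, and in the right panel all 12 lie to the left.

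Among the alpha genes, PCDHA10 and PCDHAC2 passed the filter, both in the comparisons with clone 15 alone. They passed it through their level in clone 15, so that they were called there is no result about the alpha cluster, and their levels are the data. PCDHA10 is one of the alternate isoforms, those from which neurons choose. The longest stretch of exon sequence of its own lies at chr5:140855883-140861223 (GENCODE 29, GRCh38). Its counts come from 10002 bases of own exon sequence in all. Its level was 0.463, 0.647 and 0.919 CPM in parental cells, 0.457, 0.484 and 0.648 in clone 37 and 2.94, 3.21 and 3.22 in clone 15. The clone 15 libraries lay above all others, and the other 2 lines overlapped. PCDHA10 was 4.41-fold higher in clone 15 than in parental cells (log2 fold change 2.14, SE 0.31, adjusted p 2.34e-06, edgeR). Between the clones the change was -2.52 on the log2 scale, lower in clone 37 (SE 0.30, adjusted p 4.69e-08). Without clone 15 replicate 3 these changes were 2.14 and -2.51.

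PCDHAC2 is a C-type isoform, a kind that neurons express more uniformly than the alternate isoforms, and it lies last in the alpha cluster. It had 2 counts in all parental libraries together, 1 in clone 37 and 117 in clone 15. Its level in clone 15 was 1.65, 1.06 and 1.501 CPM, and elsewhere at most 0.144 CPM. The ratio of pooled CPM was 27.2 against parental cells (95% exact interval 7.35 to 227) and 48.4 against clone 37 (8.51 to 1926), which covers counting error only. The adjusted p was 3.02e-06 against parental cells and 3.34e-07 between the clones (edgeR), 2 comparisons that share the clone 15 libraries. The log2 fold changes without clone 15 replicate 3 were 4.54 and -5.27.

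**Figure D4:**
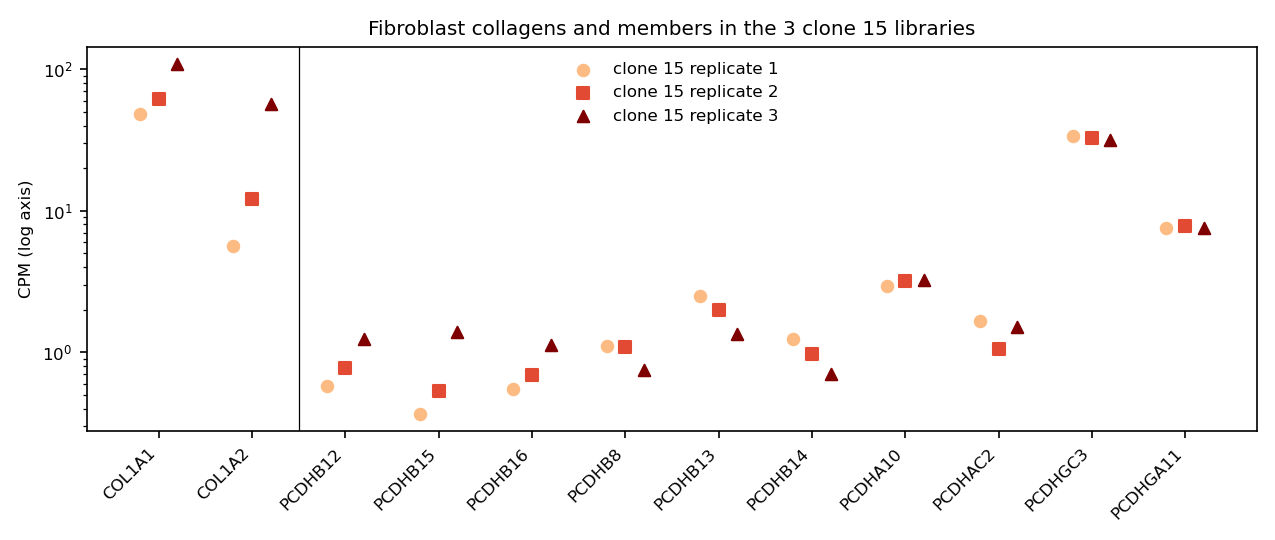
CPM (log axis) in the 3 clone 15 libraries of the fibroblast collagens COL1A1 and COL1A2, left of the line, and of 10 members. COL1A2 runs from 5.59 to 56.8 CPM, while PCDHA10, PCDHAC2, PCDHGC3 and PCDHGA11 lie close together and PCDHB12, PCDHB15 and PCDHB16 are highest in replicate 3.

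The other alpha genes were sparse, and no count model could be fitted to them after the filter. PCDHA11 had no count in parental cells or clone 37 and 36 in clone 15 (0.473, 0.203 and 0.697 CPM). With 3 counts per library as the floor, that is at least 1.90-fold higher than parental and at least 1.70-fold higher than clone 37. PCDHAC1, the other C-type alpha gene, was at 0 to 0.0925 CPM in parental cells, 0 to 0.0968 in clone 37 and 0.473, 0.325 and 0.268 in clone 15. PCDHA12 was at 0.315, 0.203 and 0.0536 CPM in clone 15, with 2 counts in all in parental cells and 1 in clone 37. PCDHA6 and PCDHA7 had 1 count each, both in clone 15 replicate 3.

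Antisense transcription through an alpha first exon is known to precede the choice of that promoter in neurons, so the opposite strand was read as well. Opposite-strand counts over the alpha members were 2 of 46 stranded counts in parental cells, 1 of 26 in clone 37 and 25 of 569 in clone 15, or 4.39% (95% exact interval 2.86 to 6.42). Over all genes the share was 6.04% to 6.81% in parental libraries and 6.96% to 7.37% in clone 15. The other clusters were lower in clone 15, with 4 of 711 for the beta members, or 0.563% (0.154 to 1.43), and 52 of 4826 for the gamma members, or 1.08% (0.806 to 1.41). Their shares were 3.0% and 0.895% in parental cells. Among the alpha genes the largest value was that of PCDHA9, with 11 opposite-strand counts in clone 15, 1 in parental cells and 0 in clone 37. PCDHA10 had 4, 1 and 1, and PCDHAC2 had none in any library.

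Among the beta genes, PCDHB8, PCDHB13 and PCDHB14 were higher in clone 15 in every library than in the other lines. They passed the filter in the comparisons with clone 15 alone, through their level there, so their number is no result about the beta cluster. Of all genes, 25.1% were called higher in clone 15 than in parental cells. The beta proteins share the adhesive outer part of the family but lack the constant tail. PCDHB13, at chr5:141213919-141218979, was at 0.555, 0.360 and 0.230 CPM in parental cells, 0.183, 0.194 and 0.324 in clone 37 and 2.49, 1.99 and 1.34 in clone 15. The clone 15 libraries lay above all 6 others. The change was 5.16-fold against parental cells (log2 fold change 2.37, SE 0.41, adjusted p 2.83e-05, edgeR) and -3.03 on the log2 scale for clone 37 against clone 15 (SE 0.43, adjusted p 8.68e-07). PCDHB8 was at 0, 0.288 and 0.153 CPM in parental cells, 0, 0 and 0.162 in clone 37 and 1.10, 1.10 and 0.751 in clone 15. Against parental cells its level was higher by 2.58 on the log2 scale (SE 0.57, adjusted p 0.00045, edgeR). With 2 counts in clone 37, the pooled ratio of clone 15 to clone 37 was 17.2 (4.60 to 144).

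Because PCDHB8 and PCDHB13 share so much sequence, their counts are uncertain against each other. Moving from 75-base to 100-base words raised the unique share by 1.14 times for PCDHB8, 1.04 for PCDHB13 and 1.03 for PCDHB14. Other effects of read length on these counts were not tested. PCDHB14 was at 0.370, 0.288 and 0.306 CPM in parental cells, 0.365, 0.0968 and 0.0810 in clone 37 and 1.23, 0.975 and 0.697 in clone 15 (log2 fold change 1.60 against parental, SE 0.45, adjusted p 0.0046, edgeR). Within clone 15, all 3 of these genes were lowest in replicate 3, the library with the most collagen RNA. Without that library PCDHB13 was at 2.57 and PCDHB8 at 2.74 on the log2 scale against parental cells, and the call for PCDHB14 held. PCDHB14 no longer passed the filter without clone 15 replicate 1 or without replicate 2.

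Other beta genes ran the other way among the clone 15 libraries. PCDHB12 was at 0.578, 0.772 and 1.23 CPM in replicates 1, 2 and 3, PCDHB15 at 0.368, 0.528 and 1.39 and PCDHB16 at 0.551, 0.690 and 1.13. COL1A2 was also lowest in replicate 1 and highest in replicate 3, and its part in these 3 genes was not tested. These 3 were chosen after their values were seen, and none passed the filter in any comparison with all libraries. In parental cells all 3 were at 0.288 CPM or less. Other members rose in the same order across clone 15 replicates 1, 2 and 3. Among them were PCDHB11, at 0.184, 0.325 and 0.590 CPM, and PCDHGC5 of the gamma cluster, at 1.42, 2.15 and 2.31 CPM. PCDHGC5 was called higher in clone 15, and the part of COL1A2 in these members was not tested either. PCDHB7 had no count in parental cells or clone 37 and 27 in clone 15, at least 1.27-fold and at least 1.14-fold higher at the floor.

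PCDHB2 was the beta gene with the highest level per kilobase in parental cells and clone 37. Per kilobase of own exon it was at 0.246 ± 0.103 RPKM in parental cells, 0.2004 ± 0.0315 in clone 37 and 0.299 ± 0.0690 in clone 15. It was called in no comparison (log2 fold change -0.27, SE 0.39, and 0.27, SE 0.36, against parental cells). An antisense gene overlaps it, and counts that ignore strand gave 0.370 CPM in parental cells against 1.02 on the transcript strand, since pairs that fit both genes then go uncounted. For PCDHGC3 the unstranded mean in parental cells was 24.7 CPM against 23.5.

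The gamma cluster held most of the members' counts, and PCDHGC3 was its largest part. PCDHGC3 is a C-type isoform that is also widely expressed outside neurons, and its own first exon lies at chr5:141475947-141478795. It was at 22.9, 25.3 and 22.4 CPM in parental cells, 12.3, 12.7 and 11.2 in clone 37 and 33.8, 32.6 and 31.7 in clone 15. The 3 lines did not overlap. PCDHGC3 was 1.99-fold lower in clone 37 than in parental cells (log2 fold change -0.996, SE 0.10, adjusted p 3.53e-07, edgeR) and 1.36-fold higher in clone 15 (0.44, SE 0.10, adjusted p 0.000596). It was the only member called in both clones against parental cells, in opposite directions. Between the clones the log2 fold change was -1.44 (SE 0.09, adjusted p 2.18e-13). With clone 15 replicate 3 left out the values were 0.48 against parental cells and -1.47 between the clones.

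Per kilobase of own exon, PCDHGC3 was at 7.24 ± 0.483 RPKM in parental cells, 3.71 ± 0.242 in clone 37 and 10.1 ± 0.329 in clone 15. The next members were PCDHGA11 at 1.68 ± 0.213 and PCDHGC4 at 0.921 ± 0.164 RPKM in parental cells, which did not overlap. In clone 37 these 2 stood at 1.005 ± 0.308 and 0.906 ± 0.0604 and in clone 15 at 2.11 ± 0.0433 and 1.86 ± 0.289, and their libraries overlapped in both. PCDHGC3 made up 57.0% ± 4.30 of the gamma RPKM in parental cells, 49.4% ± 4.20 in clone 37 and 55.2% ± 1.14 in clone 15. PCDHGC4 made up 7.28% ± 1.49, 12.0% ± 0.446 and 10.2% ± 1.40. The 3 C-type genes together held 66.5% ± 4.45, 65.1% ± 3.56 and 69.2% ± 0.895.

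**Figure D5:**
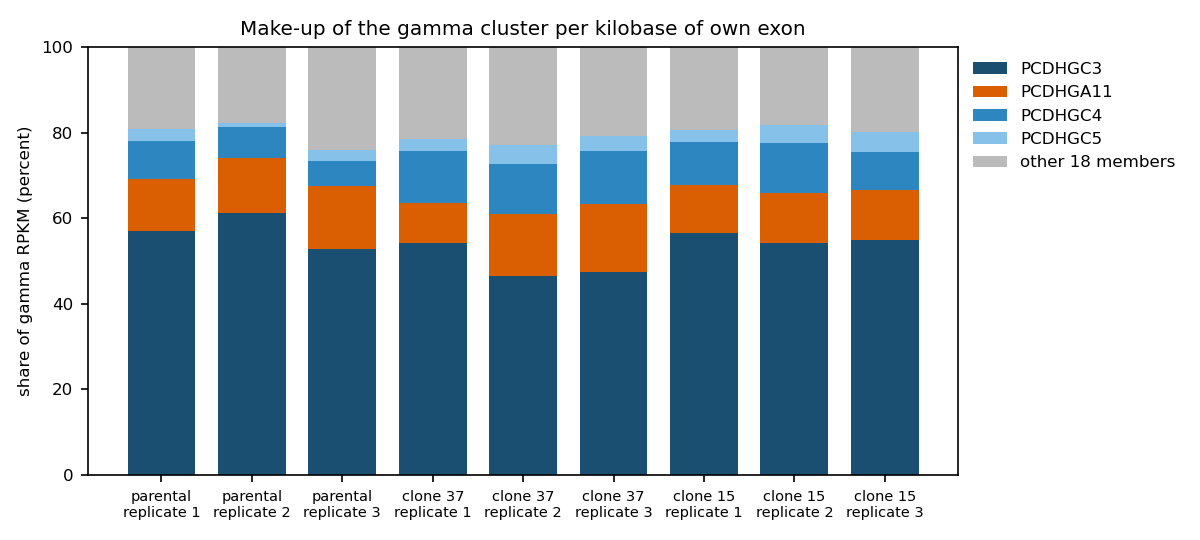
Share of the summed gamma RPKM held by PCDHGC3, PCDHGA11, PCDHGC4, PCDHGC5 and the other gamma members, 1 bar per library (linear axis, 0 to 100 percent). PCDHGC3 is the largest part in every library, from 46.4% in clone 37 replicate 2 to 61.3% in parental replicate 2.

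The other C-type gamma genes rose in clone 15 alone among the comparisons with parental cells. PCDHGC4 was at 3.05, 2.52 and 2.14 CPM in parental cells, 2.37, 2.71 and 2.51 in clone 37 and 5.17, 6.01 and 4.40 in clone 15. Parental cells and clone 37 overlapped, and clone 15 lay above both. Against parental cells it changed by 0.996 on the log2 scale in clone 15 (SE 0.21, adjusted p 0.00037, edgeR), while the value was -0.04 in clone 37 (SE 0.24, adjusted p 0.90) and -1.04 between the clones (SE 0.19, adjusted p 4.47e-05). PCDHGC5 was at 0.925, 0.360 and 0.995 CPM in parental cells, 0.548, 1.06 and 0.729 in clone 37 and 1.42, 2.15 and 2.31 in clone 15. The clone 15 libraries again lay above the rest. On the log2 scale the change was 1.33 in clone 15 (SE 0.36, adjusted p 0.0035, edgeR), and the value was 0.03 in clone 37 (SE 0.44) and -1.29 between the clones (SE 0.34, adjusted p 0.0018). PCDHGC4 stood at 1.11 against parental cells and -1.14 between the clones without clone 15 replicate 3, and PCDHGC5 at 1.22 and -1.18.

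Among the alternate gamma genes, PCDHGA11 fell in clone 37, and PCDHGA7, PCDHGA6 and PCDHGB2 were called between the clones. These last 3 did not pass the filter in clone 37 against parental cells and were not tested there. Between the clones they passed it through their level in clone 15, so that they were called is no result about the cluster. PCDHGA11 was at 5.46, 5.90 and 6.97 CPM in parental cells, 2.37, 4.45 and 4.13 in clone 37 and 7.53, 7.84 and 7.61 in clone 15. The 3 lines did not overlap. It was 1.70-fold lower in clone 37 than in parental cells (log2 fold change -0.77, SE 0.21, adjusted p 0.0054, edgeR), and its change in clone 15 did not pass the test (0.29, SE 0.16, adjusted p 0.13). Between the clones its log2 fold change was -1.06 (SE 0.18, adjusted p 9.78e-06). PCDHGA7 was at 0.740, 1.007 and 0.689 CPM in parental cells, 0.274, 0.194 and 0.243 in clone 37 and 1.58, 1.30 and 0.804 in clone 15. PCDHGA6 was at 0.274 to 0.324 CPM in clone 37 and 0.975 to 1.31 in clone 15, and PCDHGB2 at 0.194 to 0.548 and 0.731 to 1.34. Clone 37 lay below clone 15 without overlap for each. The log2 fold changes between the clones were -2.38 (SE 0.47, adjusted p 9.47e-05, edgeR) for PCDHGA7, -1.89 (SE 0.44, adjusted p 0.000596) for PCDHGA6 and -1.52 (SE 0.46, adjusted p 0.0057) for PCDHGB2. In clone 15 against parental cells these 3 had log2 fold changes of 0.59, 0.79 and 0.94, with adjusted p of 0.18, 0.087 and 0.076. The change between the clones without clone 15 replicate 3 was -1.08 for PCDHGA11, -2.58 for PCDHGA7 and -1.95 for PCDHGA6, and PCDHGB2 was not tested. PCDHGA7 was not tested between the clones without clone 15 replicate 1 or without replicate 2, and PCDHGB2 without replicate 1. PCDHGB2 also missed the threshold without clone 37 replicate 2 (adjusted p 0.051, edgeR). For PCDHGA7 the pooled ratio of parental cells to clone 37 was 3.45 (95% exact interval 1.55 to 8.69), and its change in clone 37 was called with no filter on low counts (-1.78, adjusted p 0.0085, edgeR) and in the fit of all 9 libraries.

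PCDHGB7 was below the other lines in clone 37, at 0.183, 0.290 and 0.0810 CPM against 0.740, 1.08 and 1.22 in parental cells, and did not pass the filter in that comparison. The pooled ratio of parental cells to clone 37 was 5.79 (95% exact interval 2.43 to 16.7). PCDHGB7 was called lower in clone 37 with counts that ignore strand, with no filter, in the fit of all 9 libraries, and without parental replicate 1 or any 1 of the 3 clone 37 libraries. In clone 15 it was at 0.971, 1.26 and 0.375 CPM, lowest in replicate 3. PCDHGA12 did not pass the filter with all libraries, at 0.0925, 0.216 and 0.459 CPM in parental cells, 0.0913, 0.581 and 0.243 in clone 37 and 0.604, 0.772 and 0.643 in clone 15. With counts pooled, clone 15 was 2.51 times parental cells (95% exact interval 1.26 to 5.52). PCDHGA12 was called higher in clone 15 than in parental cells with counts that ignore strand and without parental replicate 3, and lower in clone 37 than in clone 15 without clone 37 replicate 2. The remaining gamma genes, PCDHGB1, PCDHGB5 and PCDHGA10 among them, were either not tested or not called in any comparison with all libraries and the filter.

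Without a filter on low counts, 45, 52 and 52 members could be fitted and all calls of a comparison had 1 direction. In clone 37 against parental cells 5 were lower (27.3% of 32740 genes called), with PCDHGA3, PCDHGA7 and PCDHGB7 added. In clone 15 against parental cells 15 were higher (25.8% of 34820 genes called), with PCDHA11, PCDHA13, PCDHAC1, PCDHB7, PCDHB12, PCDHB15 and PCDHB16 added. Between the clones 23 were lower in clone 37 (30.4% of 34801 genes called). Without clone 15 replicate 3 as well, the last 2 counts were 14 and 20. PCDHB15 was lost in both, and PCDHB11 and PCDHGB4 in the second.

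Genes near and around the clusters give a sense of the neighbourhood. TAF7, a subunit of the general transcription factor TFIID that lies between the beta and gamma clusters, was at 83.5 ± 7.15, 89.2 ± 3.29 and 90.2 ± 9.42 CPM in parental cells, clone 37 and clone 15 and was not called. Of 20 flanking genes, 18 were tested. In clone 37 4 were higher and 7 lower than in parental cells, and in clone 15 9 were higher and 3 lower, with medians of 0.06 and 0.20 on the log2 scale. Between the clones 2 were higher and 8 lower in clone 37 (median -0.32). These are 11, 12 and 10 of 18, where 54.0%, 51.4% and 57.7% of all genes were called. The largest called change in clone 37 was -0.69 for DELE1, a mitochondrial stress sensor. In clone 15 the largest were 0.91 for DND1, an RNA-binding protein of germ cells, and 0.76 for NDUFA2, a subunit of respiratory complex I. DND1 was barely expressed, at 0.948 ± 0.281 CPM in parental cells and 1.78 ± 0.565 in clone 15 (SE 0.34, adjusted p 0.029, edgeR). NDUFA2 was at 25.5 ± 2.79 and 44.3 ± 2.85 CPM.

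Of 21 protocadherins and large cadherins outside the clusters, 15 were tested in clone 37, where 10 fell and 1 rose, and 16 in clone 15, where 6 fell and 2 rose, beside 54.0% and 51.4% of all genes called. PCDH9, a protocadherin of the delta type, fell from 259 ± 26.7 CPM in parental cells to 26.6 ± 2.33 in clone 37 (log2 fold change -3.31, SE 0.08, adjusted p 5.06e-15, edgeR) and was at 184 ± 4.24 in clone 15 (-0.52, SE 0.08). FAT3, a giant cadherin, fell by 1.04 on the log2 scale in clone 37. PCDH10 fell by 1.06 and CELSR3 by 0.88 in clone 15. The 21 summed to 826 to 1321 CPM per library.

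Among 11 genes of CTCF and cohesin, the promoter-choice machinery, 2 rose and 4 fell in clone 37, and 0 rose (0 also at an unadjusted p under 0.05, edgeR) and 3 fell in clone 15. CTCF was at 101 ± 4.08 CPM in parental cells, 118 ± 2.24 in clone 37 and 102 ± 7.27 in clone 15. STAG1 and STAG2, alternative cohesin subunits, fell by 0.66 and 0.53 on the log2 scale in clone 37. RAD21 and SMC3, core cohesin subunits, fell by 0.88 and 0.44 in clone 15. Of 14 genes for DNA methylation and silencing, 3 rose and 7 fell in clone 37, and 7 rose and 4 fell in clone 15. The shares of all genes called were 54.0% in clone 37 and 51.4% in clone 15, which these counts of both lists stand beside. The 2 enzymes that set new DNA methylation moved in opposite directions, each the same way in both clones. DNMT3A was at 95.8 ± 1.90 CPM in parental cells, 48.3 ± 0.887 in clone 37 and 46.6 ± 3.04 in clone 15 (log2 fold changes -1.012 and -1.07). DNMT3B was at 45.3 ± 2.67, 67.0 ± 3.47 and 74.3 ± 0.188 CPM (0.54 and 0.68). SMCHD1, a repressor of the clusters, was lower in clone 15 by 0.44 on the log2 scale and was not called in clone 37 (-0.03). Both clones share the parental libraries, so these paired values are not independent.

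Of 15 partner genes of protocadherin signalling and processing, 1 rose and 8 fell in clone 37, and 1 rose and 5 fell in clone 15. PTK2, the focal adhesion kinase that protocadherin tails can inhibit, fell by 0.71 on the log2 scale in clone 15 and was not called in clone 37 (-0.08). NLGN1, a synaptic adhesion protein, fell by 0.98 in clone 37 and 0.52 in clone 15. These counts stand beside the shares of all genes called, 54.0% in clone 37 and 51.4% in clone 15.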

How the data were processed

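Each library has 1 deposited table of raw gene counts, made by the authors with STAR 2.7.10a on hg38 per the submitters' processing notes; the annotation used is not given in the sources used here. Column 4, the transcript strand, held 92.6% to 94.0% of stranded counts and was used; column 2 ignores strand. The summary entries (no feature, ambiguous, multimapping and unmapped pairs) stayed out of totals and tests. Libraries were directional, from total RNA depleted of ribosomal RNA, per the labels' protocols. GENCODE 29 supplied exons for 58496 of the IDs, and own exon sequence is that of no other gene on the strand.

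edgeR 4.0.16 (R 4.3.3; filterByExpr, TMM, glmQLFit with robust estimation, glmQLFTest) was fitted to the 6 libraries of each comparison and was tested on simulated data. The SE is the log2 fold change over the square root of F. Other steps used Python 3.11.15 (scipy 1.17.1, numpy 2.4.6, matplotlib 3.10.9, pandas 2.3.3). Intervals are exact binomial, 95%, and cover counting error only, as pairs carry no molecular identifiers. Named members were those called at 2-fold or more with a mean of at least 1 CPM in the higher group (up to 6 each way), the 2 highest per kilobase in each group and cluster, those nearest 1 CPM, and all C-type genes; other lists gave the 2 most changed called genes in each comparison. Some members were named beyond the rule, after their values were seen, as were CTCF, TAF7 and SMCHD1. The members and lists were chosen with earlier results of these data known. Alternatives were RLE size factors, DESeq2 1.42.0, other filters, unstranded counts, a fit of 9 libraries, a replicate block, thinning and leaving out each replicate. Replicate numbers did not pair libraries.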

Additional observations from a re-analysis of the deposited data

Results flagged for a closer look

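Between the 2 clones, the change against parental cells differed for 12 members by the direct test of clone 37 against clone 15 (edgeR, adjusted p under 0.05). All 12 were lower in clone 37, but 8 of them (PCDHA10, PCDHAC2, PCDHB8, PCDHB13, PCDHB14, PCDHGB2, PCDHGA6 and PCDHGA7) passed the filter on low counts through their level in clone 15, so the filter favoured this direction for them. The log2 fold changes were -2.52 for PCDHA10 and -5.29 for PCDHAC2 in the alpha cluster. In the beta cluster they were -3.94 for PCDHB8, -3.03 for PCDHB13 and -2.44 for PCDHB14. Among the alternate gamma genes they were -1.52 for PCDHGB2, -1.89 for PCDHGA6, -2.38 for PCDHGA7 and -1.06 for PCDHGA11. The C-type gamma genes stood at -1.44 for PCDHGC3, -1.04 for PCDHGC4 and -1.29 for PCDHGC5. Of all genes tested between the clones, 57.7% were called, and 100 bp reads were used for clone 15 alone.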

How the results depend on the processing

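Directions of calls held throughout: no member called in any setting ran against the direction reported. In clone 37 against parental cells the number called was 2, and 5 with no filter on low counts, 4 in a fit of all 9 libraries (PCDHGA7 and PCDHGB7 added), 3 with unstranded counts and in 4 of the 6 fits with 1 library left out (PCDHGB7 added) and 0 when 2-fold was required. In clone 15 against parental cells 8 became 15 with no filter and 14 with no filter and without clone 15 replicate 3, the latter setting chosen after seeing the data. Between the clones 12 became 23 with no filter, 20 with no filter and without clone 15 replicate 3, and 7 with at least 1 CPM in 3 libraries, where PCDHB8, PCDHB14, PCDHGA6, PCDHGA7 and PCDHGB2 were no longer tested. Without clone 15 replicate 1 that count was 8 and without replicate 2 it was 9, since PCDHB8, PCDHB14 and PCDHGA7 were not tested in either, nor PCDHGB2 in the first. Without replicate 3 it was 12, with PCDHGB2 not tested and PCDHGB7 added. In clone 15 against parental cells it was 12 without parental replicate 3. Thinned to the smallest library it was 7 in clone 15 (PCDHB8 not tested) and 8 between the clones. PCDHGB2 was lost between the clones without clone 37 replicate 2 (-1.24, adjusted p 0.051). At 0.5 CPM, 7, 5 and 18 isoforms were above the threshold in parental cells, clone 37 and clone 15, and at 2 CPM 4 in clone 15. With the replicate number as a block the counts were 2, 8 and 12; deviations of same-numbered libraries correlated at -0.159 to 0.0221, so the numbers do not pair them. Among the members named by rule and tested with all libraries, values that changed sign, none of them called, were PCDHB2, PCDHGC4 and PCDHGC5 in clone 37 and PCDHGB7 in clone 15, all against parental cells. With 1 library left out PCDHB2 ran from -0.507 to 0.058, PCDHGC4 from -0.198 to 0.08 (0.002 without clone 37 replicate 1), PCDHGC5 from -0.328 to 0.265 (-0.226 without clone 37 replicate 2) and PCDHGB7 from -0.488 to 0.085 (0.067 with no filter as well). PCDHGC5 was at -0.033 when thinned. Members fitted only with no filter also changed sign when clone 15 replicate 3 was left out, such as PCDHGB3 between the clones (-0.41 and 0.11) and PCDHGB4 in clone 15 against parental cells (0.54 and -0.035). Leaving out 1 library gives the summed levels an exact p no lower than 0.2. For most alpha and beta genes, 1 count is 0.0263 to 0.0968 CPM, and differences below about 3 counts were not detectable at this depth.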
